A study of Rattus norvegicus with 14 samples.

Results

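Liver transcripts of Kyoto rats were compared between day 14 and day 3 of feeding with orotic acid. The arrays were chosen by their source label and by no measured value, and they are 4 of the 14 arrays of the study, 2 for each day. All 4 held RNA from the left lateral lobe of the liver of rats whose strain the labels call Kyoto, given chow with 1% orotic acid. Both sides of the comparison were therefore fed, and the comparison asks how the fed liver differed between an early and a later time, not how feeding differed from plain chow. The study also holds 2 Kyoto arrays from day 1 of the same feeding, Wistar arrays from day 3 (2) and day 14 (3), and 3 Wistar controls on plain chow. Kyoto controls and Wistar rats at day 1 were not analysed here. The labels used here name neither sex nor age. The labels do not state that each array was a separate animal, so the p-values measure the spread between these samples, which may in part be technical.

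Orotic acid is an intermediate of pyrimidine synthesis, and in excess in the diet it gives rats a reversible fatty liver with poor release of lipoproteins. The liver makes cholesterol by a chain of enzymes from acetyl-CoA through mevalonate and squalene, and makes fatty acids and triglyceride by a separate chain from citrate. Both chains are under transcription factors of the sterol regulatory element-binding family, which are held in the endoplasmic reticulum while sterol is plentiful.

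Each value below is the log2 of a probe set signal after quantile normalization, where a probe set is a group of short probes for 1 transcript on a 1-colour Affymetrix array. A difference is day 14 minus day 3, ± its standard error from a limma fit to all 14 arrays (2 against 2 arrays, 8 residual degrees of freedom). A fold is 2 raised to that difference. Signals under a floor of 6.85 were set to it, so a difference with an array of the lower group at the floor is a bound. Of 3181 features, the upper 60% by mean signal, 1909, were tested, and 1502 of these carried 1 gene symbol. Levels of different genes are not compared, since probe sets differ in brightness.

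The 4 arrays were alike in scale but not in every quality measure. Across genes, which are not independent replicates, the day 14 arrays correlated at r = 0.978 and the day 3 arrays at 0.962, while day 3 replicate 1 was nearest to day 14 replicate 1 (0.967). On day 3 replicate 1 the 3′ Gapdh control signal exceeded the 5′ one by 1.34 log2, against 0.461 to 0.671 on the other 3 arrays. Between 0.314% and 0.733% of tested features lay at the floor on each of the 4, and all 4 carry lot batch 1. The liver label was borne out by hepatocyte markers, of which 7 of 8 were tested: Serpina1, an antitrypsin gene, lay between 14.59 and 14.72 on the 4 arrays. Of the cholangiocyte markers 3 were in the table, and Krt19 and Epcam were at the floor on all 4 arrays. Krt8, a keratin, was well above it, at 11.16 and 11.05 at day 3 and 10.83 and 10.47 at day 14 (-0.46 ± 0.32, no overlap). The samples are bulk tissue, so fewer cells of a type and less RNA per cell cannot be told apart.

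No feature passed the threshold. Of 1909 features, limma called 0 (0%) at a Benjamini-Hochberg adjusted p under 0.05, and 88 (4.61%) had an unadjusted p under 0.05, 41 higher (2.15%) and 47 lower (2.46%) at day 14. The smallest adjusted p was 0.320. The median difference over all features was -0.02 log2, with 904 features (47.4%) higher and 1003 (52.5%) lower in mean. In 360 features (18.9%) both day 14 arrays lay above both day 3 arrays, and in 438 (22.9%) both lay below, which is called no overlap here. Differences of 1 log2 or more were found in 48 features (2.51%). With 2 against 2 arrays an exact permutation test cannot go below p = 0.333. The genes below are therefore described by their values, and none of them is called changed. Among the pathway lists, the medians farthest from that of all features were those of cholesterol synthesis, cell cycle, and fatty acid and triglyceride synthesis.

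**Figure D1:**
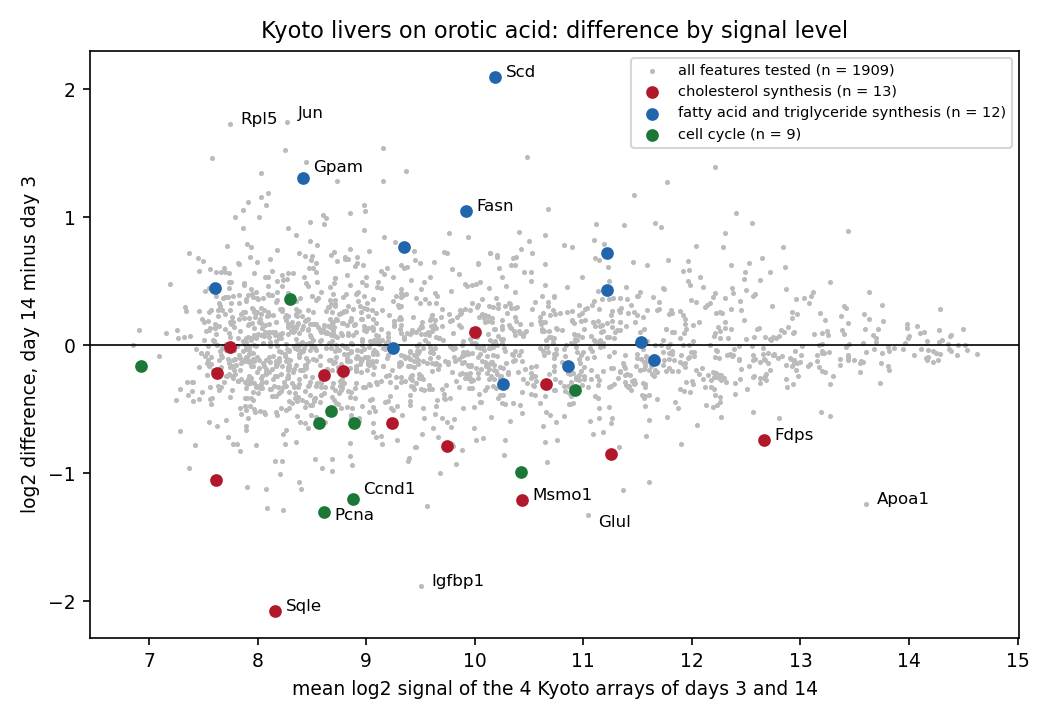
Each point is 1 tested feature (1909 in all); the x axis is its mean log2 signal over the 4 Kyoto arrays and the y axis the log2 difference, day 14 minus day 3. Sqle lies lowest at -2.08 and Scd highest at 2.09, 12 of 13 cholesterol synthesis genes lie below 0 and 8 of 12 fatty acid and triglyceride synthesis genes above it.

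Most cholesterol synthesis genes had lower means at day 14, and none passed the test. Of 21 genes listed, 14 were in the table and 13 passed the filter on low signals. Of these 13, 12 had a lower mean at day 14 and 1 a higher one, 8 were lower with no overlap (22.9% of all features were) and none was higher with no overlap. The 8 include Mvd, which differed by only -0.01. By limma 4 were lower at an unadjusted p under 0.05 (2.46% of all features were) and 0 passed after adjustment. The median difference of the 13 was -0.60, beside -0.02 over all features. The remaining gene in the table, Hsd17b7, a sterol ketoreductase, was under the filter, with means of 7.49 at day 3 and 7.13 at day 14. The median over the list's genes, each centred on its mean over all 14 arrays, was -0.24 and -0.04 on the day 3 arrays and -0.69 and -0.47 on the day 14 arrays, which do not overlap.

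The promoters of these genes are shown because the members lay together on one side of 0. Of the 13 genes, 11 had an entry in the RefSeq promoter table (GRCr8, 250 bases before to 50 after the gene's start). The 5 printed are those of genes lower by 0.60 or more that have an entry. They are given 5′ to 3′ on the strand of the gene in lower case, with each CCAAT box, in either orientation (CCAAT or ATTGG), in capitals. Msmo1 is at chr16:29746863-29747162 (+), Nsdhl at chrX:155817110-155817409 (+), Idi1 at chr17:66547475-66547774 (-), Fdps at chr2:176804767-176805066 (-) and Cyp51 at chr4:30991443-30991742 (+).
Msmo1: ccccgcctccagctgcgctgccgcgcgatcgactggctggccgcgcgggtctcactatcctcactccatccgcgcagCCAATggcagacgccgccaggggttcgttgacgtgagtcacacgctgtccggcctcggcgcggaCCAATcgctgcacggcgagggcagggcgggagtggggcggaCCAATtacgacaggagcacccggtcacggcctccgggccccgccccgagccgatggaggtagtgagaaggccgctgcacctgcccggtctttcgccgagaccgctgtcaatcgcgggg
Nsdhl: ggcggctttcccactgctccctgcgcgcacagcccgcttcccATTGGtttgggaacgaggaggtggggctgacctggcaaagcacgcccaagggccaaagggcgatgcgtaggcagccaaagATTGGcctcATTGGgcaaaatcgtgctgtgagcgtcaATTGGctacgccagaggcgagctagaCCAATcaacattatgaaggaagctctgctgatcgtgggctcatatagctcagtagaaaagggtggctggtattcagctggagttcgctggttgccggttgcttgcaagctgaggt
Idi1: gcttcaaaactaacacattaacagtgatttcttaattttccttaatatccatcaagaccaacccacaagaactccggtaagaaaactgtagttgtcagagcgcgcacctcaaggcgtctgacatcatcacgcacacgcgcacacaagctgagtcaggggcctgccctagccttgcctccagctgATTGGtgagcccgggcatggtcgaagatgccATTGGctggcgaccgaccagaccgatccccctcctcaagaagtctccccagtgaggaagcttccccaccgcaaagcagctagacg
Fdps: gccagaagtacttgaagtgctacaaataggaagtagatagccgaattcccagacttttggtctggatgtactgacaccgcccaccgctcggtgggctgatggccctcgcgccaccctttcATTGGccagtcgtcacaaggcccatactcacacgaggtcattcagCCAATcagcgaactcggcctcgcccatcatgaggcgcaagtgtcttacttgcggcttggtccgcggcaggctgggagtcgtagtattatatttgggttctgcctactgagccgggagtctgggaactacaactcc
Cyp51: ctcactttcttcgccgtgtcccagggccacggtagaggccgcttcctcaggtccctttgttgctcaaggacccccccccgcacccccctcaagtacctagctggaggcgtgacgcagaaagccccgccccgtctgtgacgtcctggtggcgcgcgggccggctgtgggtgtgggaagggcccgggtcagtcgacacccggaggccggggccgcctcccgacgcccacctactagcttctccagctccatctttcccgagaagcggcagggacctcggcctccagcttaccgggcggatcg
The CCAAT box, a site for the factor NF-Y, was present in 8 of the 11 promoters and in 37.7% of 27457 promoters of the same length. Among those printed, Nsdhl held 5, Msmo1 3, Idi1 and Fdps 2 each and Cyp51 0. Of those not printed, Mvk held 5, Mvd and Ebp 2 each, Lss 1 and Acat2 and Dhcr7 0. The letters TCACNCCAC, a common form of the sterol regulatory element, were in none of the 11 and in 1.13% of all promoters, searched on both strands. The E-box CACGTG was in 0 of the 11 and in 6.65% of all, and the GC box GGGCGG in 9 of the 11 and in 34.9% of all. These matches are descriptions of the letters in the window.

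The enzymes that make squalene had lower means at day 14. Idi1, which interconverts the isoprenoid building blocks, read 7.89 and 8.40 at day 3 and 7.12 and 7.06 at day 14, a difference of -1.05 ± 0.60. Fdps, which joins them to farnesyl diphosphate, read 13.22 and 12.85 against 12.26 and 12.33, a difference of -0.74 ± 0.35. Its other probe sets gave -0.72 and -0.66. Fdft1, the squalene synthase, differed by -0.85 ± 0.43, from 11.77 and 11.59 to 11.05 and 10.61, but its other 3 probe sets gave only -0.19 to -0.07. In all 3 genes the day 14 arrays lay below the day 3 arrays. The mevalonate enzymes before them were closer to 0: Acat2, the cytosolic thiolase, differed by -0.23 ± 0.42, Mvk, the mevalonate kinase, by -0.22 ± 0.40 and Mvd, the mevalonate decarboxylase, by -0.01 ± 0.27.

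The lowest difference of all features was that of Sqle, the squalene epoxidase that makes the first oxygenated sterol precursor. Its log2 signals were 8.78 and 9.62 at day 3 and 6.95 and 7.29 at day 14. The day 14 arrays lay more than 1 log2 below either day 3 array, and the difference of -2.08 ± 0.45 is 4.21-fold lower (limma adjusted p = 0.430). On the 2 day 1 arrays Sqle read 9.48 and 8.87, within the range of day 3. Lss, which closes the sterol rings in the next step, differed by -0.20 ± 0.36, with overlap.

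Of the enzymes that trim lanosterol to cholesterol, 3 were lower with no overlap and the other two overlapped. Msmo1, the methyl oxidase, read 10.98 and 11.10 at day 3 and 9.48 and 10.19 at day 14, a difference of -1.21 ± 0.37 (limma adjusted p = 0.834), and its second probe set gave -1.48. Cyp51, the lanosterol demethylase, read 9.9997 and 10.28 against 8.93 and 9.78, a difference of -0.79 ± 0.34, with 3 other probe sets at -1.23 to -0.59 and 1 at the floor. Nsdhl, the decarboxylating sterol dehydrogenase, read 9.37 and 9.71 against 8.81 and 9.06 and differed by -0.60 ± 0.27. Ebp, the sterol isomerase, differed by -0.30 ± 0.33 and Dhcr7, the last reductase, by 0.10 ± 0.33, both with overlap.

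Regulators of the pathway were measured in part. Insig1, which holds the sterol sensor in the endoplasmic reticulum and is itself a sterol-responsive gene, read 11.10 and 10.96 at day 3 and 10.45 and 10.10 at day 14, a difference of -0.75 ± 0.38, while its second probe set gave -0.16. Srebf1, which encodes the family member that favours fatty acid synthesis, read 9.56 and 10.38 against 11.11 and 10.59, a difference of 0.88 ± 0.42. Without day 3 replicate 1, the array with the largest gap between 3′ and 5′ Gapdh signals, Srebf1 was 0.47. The means of the 2 genes lay on opposite sides of 0, with no overlap in either. Over the 7 tested genes of the sterol sensing and uptake list the median was -0.05. The cholesterol values rest in part on day 14 replicate 1, without which the list median was -0.36 and the differences of Cyp51 and Msmo1 were -0.36 and -0.86; Sqle was -1.90.

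**Figure D2:**
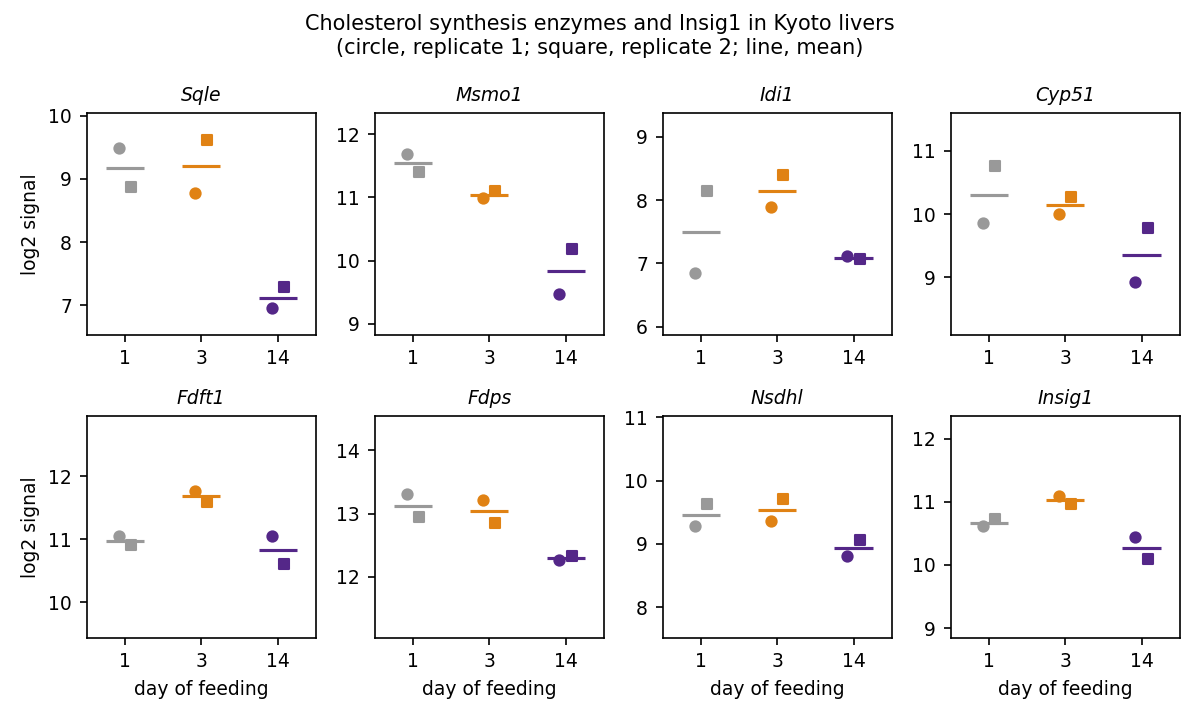
Log2 signals (y axis, the same span in every panel) of 7 cholesterol synthesis enzymes and Insig1 on the Kyoto arrays of days 1, 3 and 14 of feeding (x axis, 2 arrays each). In all 8 panels both day 14 arrays lie below both day 3 arrays, by the widest gap for Sqle. Only genes with no overlap are drawn, and the other tested enzymes, Acat2, Mvk, Mvd, Lss, Ebp and Dhcr7, are left out.

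Genes of fatty acid and triglyceride synthesis were on the other side. Of 27 listed genes 14 were in the table and 12 tested, of which 8 had a higher mean at day 14 and 4 a lower one. With no overlap 5 were higher (18.9% of all features were) and 1 lower (22.9% of all). By limma 3 were higher at an unadjusted p under 0.05 (2.15% of all). The median was 0.44. It depended on single arrays: without day 3 replicate 1 it was 0.11, without day 3 replicate 2 it was 0.27, without day 14 replicate 1 it was 0.66 and without day 14 replicate 2 it was 0.27. On the median of centred signals, day 3 replicate 1 was lowest at -0.44, day 3 replicate 2 was at -0.13 and the day 14 arrays were at 0.07 and 0.09. Day 3 replicate 1 is also the array with the largest gap between 3′ and 5′ Gapdh signals, and the part of RNA quality in this result was not tested.

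The highest difference of all features was that of Scd, the stearoyl-CoA desaturase, which makes the monounsaturated fatty acids stored in triglyceride. It read 9.51 and 8.78 at day 3 and 11.35 and 11.12 at day 14, and both day 14 arrays were clearly above day 1 (9.46 and 9.05) as well. The difference was 2.09 ± 0.58, 4.26-fold higher (limma adjusted p = 0.713), and it ran from 1.73 to 2.46 with single arrays left out. A second Scd probe set was at the floor on all 4 arrays.

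Gpam, which adds the first acyl chain to glycerol phosphate, read 7.18 and 8.35 at day 3 and 9.09 and 9.04 at day 14, a difference of 1.30 ± 0.51. Its day 1 levels were 10.04 and 9.07, so of the 6 Kyoto arrays those of day 3 were the low ones. Of its other 4 probe sets, 3 gave 0.09 to 0.51 and 1 was at the floor. Fasn, the fatty acid synthase, read 8.66 and 10.12 against 10.33 and 10.55, a difference of 1.05 ± 0.62. Gpd1, which makes glycerol phosphate, read 8.30 and 9.62 against 9.65 and 9.81, a difference of 0.77 ± 0.45. In each of these 3 genes day 3 replicate 1 was the lowest array, and without it the differences were 0.72 for Gpam, 0.32 for Fasn and 0.11 for Gpd1.

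Acsl1, which activates fatty acids to their CoA esters, was low on the other day 3 array: 11.25 and 10.46 at day 3 against 11.50 and 11.66 at day 14, a difference of 0.72 ± 0.29, with its other 3 probe sets at 0.07 to 0.83. The difference of Acsl1 was 0.33 without day 3 replicate 2. Of the enzymes that feed the chain, 2 had a lower mean and 1 a higher one. Acly, which splits citrate to acetyl-CoA, differed by -0.11 ± 0.33, Slc25a1, the citrate carrier, by -0.16 ± 0.28, and Me1, which supplies NADPH, by 0.45 ± 0.52, all with overlap, and Me1 was 0.063 without day 3 replicate 2. Elovl5, a fatty acid elongase, differed by 0.03 ± 0.23 and Dgat1, which adds the last acyl chain of triglyceride, by -0.02 ± 0.27. Of the other acyl-CoA synthetases, Acsl4 differed by 0.43 ± 0.50, and by 0.10 without day 3 replicate 1 or without day 14 replicate 2, and Acsl5 by -0.30 ± 0.41, and by -0.14 without day 14 replicate 1.

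**Figure D3:**
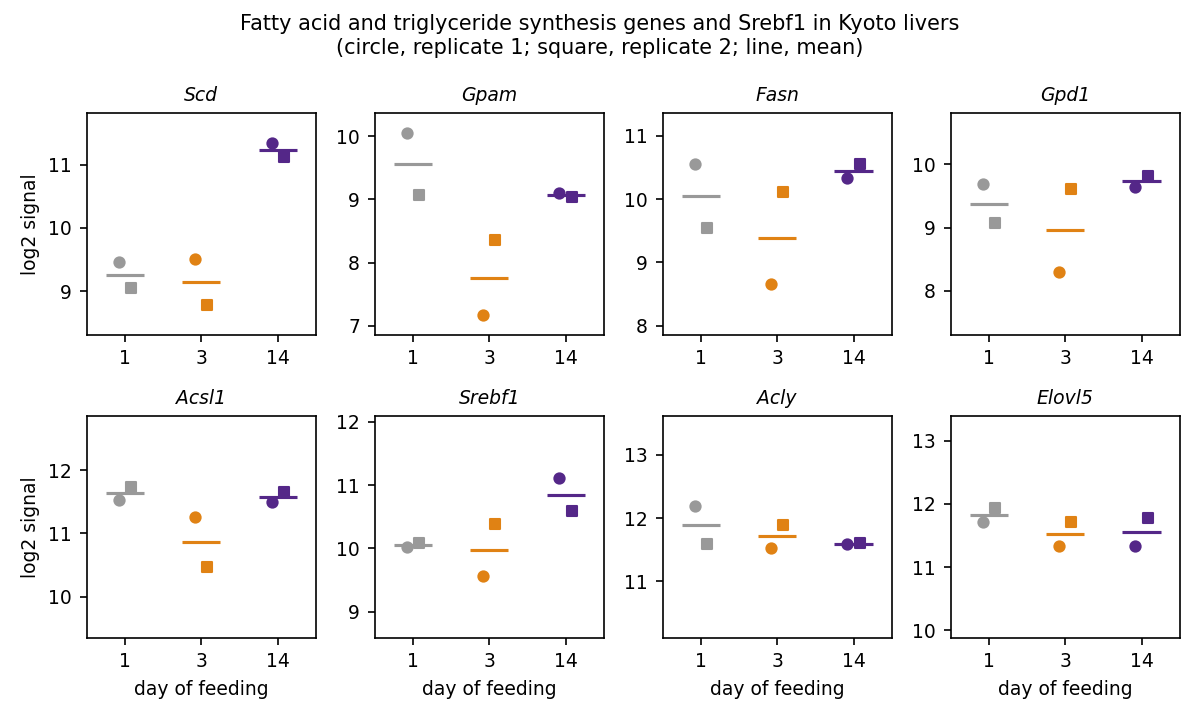
Log2 signals (y axis, the same span in every panel) of 7 fatty acid and triglyceride synthesis genes and Srebf1 on the Kyoto arrays of days 1, 3 and 14 (x axis, 2 arrays each). Scd stands 2.09 higher at day 14, Gpam and Fasn have a wide gap between their day 3 arrays, and Acly and Elovl5 overlap between the days.

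Most genes of cell division had lower means at day 14, and none passed the test. Of 51 listed genes 22 were in the table but only 9 passed the filter, and of these 8 were lower and 1 higher in mean, 6 lower with no overlap (22.9% of all features were) and 2 lower at an unadjusted p under 0.05 (2.46% of all features were). The median was -0.60 and -0.44 without day 14 replicate 1. The median of the centred signals was 0.65 and 0.40 on the day 3 arrays, above -0.36 and -0.22 on the day 14 arrays and 0.12 and 0.16 on the day 1 arrays.

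Pcna, the sliding clamp of the replication fork, read 9.64 and 8.88 at day 3 and 7.92 and 7.997 at day 14, a difference of -1.30 ± 0.63, with a second probe set at -0.96. On day 1 it read 7.47 and 8.84, so the day 3 arrays were its highest. Ccnd1, cyclin D1, which drives entry into the cycle, read 9.35 and 9.60 against 8.06 and 8.49, a difference of -1.20 ± 0.44, and 2 further probe sets gave -1.10 and -0.67 and another was at the floor. H2ax, a histone of the DNA damage response that was not in the list, read 8.83 and 8.92 against 7.50 and 7.67, a difference of -1.29 ± 0.32 (limma adjusted p = 0.496). All 3 had no overlap. Tubb5, a tubulin of the spindle and cytoskeleton, differed by -0.99 ± 0.36 and Ccnd3, cyclin D3, by -0.61 ± 0.29, also with no overlap, and Ccnd3 was -0.38 without day 3 replicate 2.

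The remaining tested members differed less. Cdk4, the kinase partner of the D cyclins, differed by -0.51 ± 0.37 and Btg1, an antiproliferative gene, by -0.35 ± 0.29. Cdk4 was -0.24 without day 3 replicate 2, and without day 3 replicate 1 Btg1 was -0.10. Ccnd2, cyclin D2, was at the floor on 3 of the 4 arrays, both of day 14 among them, and was at least 0.16 lower, a difference that was 0 without day 3 replicate 2. H2az1, a histone variant, was high on day 3 replicate 1 alone, at 9.79 against 8.59 on the other day 3 array and 8.38 and 8.79 at day 14. Gadd45a, an inducible growth arrest gene, was the 1 member with a higher mean, by 0.36 ± 0.50. Of the 13 members under the filter, 3 were at the floor on all 4 arrays, 9 had a lower mean at day 14 and 1 a higher one. Top2a, the replication topoisomerase, had a mean of 7.94 at day 3 and was at the floor on both day 14 arrays, as was Stmn1, a regulator of spindle microtubules, from 7.78. These genes were left out of the test because their signal was low, and Top2a and Stmn1 were chosen after their values were seen.

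Lipid transport genes were mostly near 0, with a few larger differences. Of 10 apolipoprotein and VLDL assembly genes tested, 4 were higher and 5 lower, with a median of -0.06. Apoa1, the main protein of high-density lipoprotein, read 14.18 and 14.27 at day 3 and 13.09 and 12.89 at day 14, a difference of -1.24 ± 0.34 (limma adjusted p = 0.713), and its second probe set gave -1.60. The 2 day 1 arrays read 14.16 and 14.02, so of the 6 Kyoto arrays only those of day 14 were low. Apoa4, an apolipoprotein of chylomicrons and VLDL, differed by -0.74 ± 0.45, and Apom, a carrier of sphingosine phosphate, by -0.56 ± 0.27, both with no overlap. Among 7 lipid droplet and fatty acid handling genes 6 were lower (median -0.18). Fabp5, a fatty acid binding protein, was the lowest of them, at 10.50 and 9.88 against 8.85 and 9.03, a difference of -1.25 ± 0.29 (limma adjusted p = 0.477).

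Fatty acid oxidation genes were higher in most members by small differences. In the peroxisomal list 15 of 19 were higher, 9 with no overlap (18.9% of all features were), with a median of 0.26, and in the mitochondrial list 15 of 20 were higher, 8 with no overlap, with a median of 0.21. Hao2, a peroxisomal hydroxyacid oxidase, read 10.54 and 10.75 at day 3 and 11.56 and 11.62 at day 14, a difference of 0.95 ± 0.37. Acaa1b, a peroxisomal thiolase, differed by 0.90 ± 0.40 and Scp2, a sterol carrier with thiolase activity, by 0.69 ± 0.35. In mitochondria Acadm, the medium-chain dehydrogenase, differed by 0.77 ± 0.40 and Bdh1, which makes hydroxybutyrate, by 0.53 ± 0.30. Cpt2, which releases acyl-CoA inside mitochondria, ran the other way at -0.63 ± 0.26, as did Hacl1, a peroxisomal lyase, at -0.77 ± 0.40. All 7 genes had no overlap. Cpt2 was -0.35 and Hacl1 -0.36 without day 3 replicate 2, without day 3 replicate 1 Bdh1 was 0.29, and without day 14 replicate 2 Scp2 was 0.46.

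Amino acid breakdown genes were higher in most members. Of 26 members tested, 22 were higher and 4 lower, 12 were higher with no overlap (18.9% of all features were) and 0 lower, and 4 were higher at an unadjusted p under 0.05 (2.15% of all), with a median of 0.29. The 4 lower ones were Csad (-0.48), Aadat (-0.12), Cdo1 (-0.07) and Agxt (-0.05). The count of higher members ran from 19 to 23 with single arrays left out. Kmo, the kynurenine monooxygenase, read 9.52 and 9.51 at day 3 and 10.30 and 10.43 at day 14, a difference of 0.85 ± 0.28. Tdo2, which opens the ring of tryptophan upstream of it, read 11.42 and 11.12 against 11.98 and 11.81, a difference of 0.63 ± 0.23. Both steps lie on the route from tryptophan to NAD. Hal, the histidine ammonia-lyase, differed by 0.68 ± 0.26, with a second probe set at 1.21, and Sult1a1 by 0.62 ± 0.26, with a second probe set at 0.50. Sult1a1 is a phenol sulfotransferase, also in the conjugation list, and not an enzyme of amino acid breakdown, though the counts above include it. Sult1a1 was 0.17 without day 3 replicate 2. Of the methionine cycle and choline genes 10 of 15 were higher (median 0.10). Gnmt, the glycine methyltransferase, was the largest at 0.95 ± 0.44, with 2 further probe sets at 1.30 and 1.32, but without day 3 replicate 2 it was 0.41.

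Genes that mark the zones of the liver lobule were compared by list, with no test between the zones. Of 9 genes of the pericentral zone, around the central vein, 8 were lower and Car3, a carbonic anhydrase, was at 0.03 (median -0.22), 3 of the 9 lower with no overlap. Of 17 genes of the periportal zone 11 were higher, 7 with no overlap, and 6 lower, 4 with no overlap (median 0.25). Over all features 18.9% were higher and 22.9% lower with no overlap. Glul, the glutamine synthetase of the innermost pericentral cells, read 11.14 and 12.27 at day 3 and 10.39 and 10.37 at day 14, a difference of -1.32 ± 0.44 (limma adjusted p = 0.861). Its 4 probe sets gave -1.58 to -1.07. It was 12.60 and 11.73 on day 1, and without day 3 replicate 2 the difference was -0.75. Gpt, the alanine aminotransferase of the periportal list, differed by 0.82 ± 0.34 and Sds, the serine dehydratase, by 0.93 ± 0.51, from 11.90 and 10.61 to 12.39 and 11.97. Both had no overlap, and without day 3 replicate 2 they differed by 0.38 and 0.28.

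Microsomal drug-metabolizing genes were higher in the larger part, where 47.4% of all features were higher. Of 30 microsomal cytochromes P450 and partners 20 were higher, 13 with no overlap (18.9% of all features were), with a median of 0.20. Cyp3a9, a steroid hydroxylase, read 9.58 and 9.91 at day 3 and 10.89 and 11.54 at day 14, a difference of 1.47 ± 0.82. Cyp2c12, a steroid hydroxylase that is the female-predominant form in rat liver, read 7.74 and 7.72 against 9.14 and 9.17, a difference of 1.43 ± 0.51, with a second probe set at 1.61. The replicates of this gene lay close together on both days. Cyp3a18, a testosterone hydroxylase, read 8.64 and 8.39 against 10.03 and 9.58 (1.28 ± 0.75), and Cyp2a1, another testosterone hydroxylase, 11.71 and 11.60 against 12.55 and 12.31 (0.78 ± 0.25). Day 1 replicate 1, the array with the lowest median correlation with the others, was at the floor for Cyp2c12 and Cyp3a18. Por, the reductase that supplies electrons to all of these enzymes, was lower, at 10.64 and 10.24 against 9.65 and 9.78, a difference of -0.72 ± 0.27, and its other 2 probe sets gave 0.05 and -0.60.

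Of 25 growth hormone dependent and sex-dimorphic genes 15 were higher, 9 with no overlap, and 10 lower, 5 with no overlap. Their median was 0.08, beside -0.02 over all features, of which 47.4% were higher. Over all features 18.9% were higher and 22.9% lower with no overlap. Cish, a feedback inhibitor of growth hormone signalling, was at the floor on day 3 replicate 2 and read 7.87 on replicate 1, against 9.21 and 8.20 at day 14, a difference of at least 1.35, which was 0.84 without day 3 replicate 2 and at least 0.84 without day 14 replicate 1. Obp3, a urinary globulin of male rats, differed by -1.13 ± 0.48 and by -0.43 without day 14 replicate 1, and its second probe set, at the floor on 2 of the 4 arrays, gave 0.05. Igfbp1, an insulin-repressed binding protein of insulin-like growth factors, had the lowest difference after Sqle, at 11.10 and 9.78 against 8.36 and 8.76. The difference was -1.88 ± 0.86, with a wide gap between the day 3 arrays, and -1.21 without day 3 replicate 1. Among 53 conjugation and antioxidant genes 33 were higher (median 0.10), with Gsta3, a glutathione transferase, at 9.20 and 8.17 against 10.18 and 9.91 (1.36 ± 0.59, and 0.85 without day 3 replicate 2) and Akr7a3, an aldehyde reductase, at 9.60 and 9.06 against 10.21 and 10.20 (0.88 ± 0.32).

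Ribosomal protein genes held both the smallest p of all features and the opposite direction in most members. Of 35 tested, 30 were lower and 5 higher, 13 lower with no overlap (22.9% of all features were) and 3 higher (Rpl5, Rps24 and, at 0.27, Rps6), with a median of -0.13. The count of lower members ran from 24 without day 3 replicate 1 to 30. Rpl5, a protein of the large subunit, was at the floor on day 3 replicate 1 and read 6.92 on replicate 2, against 8.69 and 8.54 at day 14, a difference of at least 1.73 (limma adjusted p = 0.320). Rps24, of the small subunit, read 8.60 and 8.16 against 10.11 and 9.74, a difference of 1.54 ± 0.53. No other member differed by as much as 1 log2 in either direction. Rps15 and Rpl18, at -0.58 ± 0.33 and -0.49 ± 0.25, were nearer to the rest of the list, and Rps15 was -0.27 without day 14 replicate 2. Ribosomal protein genes have many near-identical pseudogenes, and probe sets may not tell them apart.

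Cytoskeleton and matrix genes were lower in the larger part. Of 17 cytoskeleton genes 14 were lower (median -0.25), 8 with no overlap (22.9% of all features were) and 4 at an unadjusted p under 0.05 (2.46% of all). Tubb5, given above, is among these 4 and was counted in the cell cycle list as well. Tuba1b, a tubulin, differed by -0.71 ± 0.32, Pfn1, an actin-binding profilin, by -0.68 ± 0.31 and Tmsb4x, which holds actin monomers, by -0.57 ± 0.22. Tuba1b was -0.38 without day 3 replicate 1, and without day 14 replicate 1 Tmsb4x was -0.36. Of 14 stellate cell and fibroblast markers 8 were tested, 6 lower and 2 higher, with a median of -0.58, and Dcn was at the floor on all 4 arrays. The median of their centred signals was 0.13 and 0.22 at day 3 and -0.22 and -0.38 at day 14. Bgn, a matrix proteoglycan, read 9.78 and 10.25 against 9.42 and 9.18 (-0.71 ± 0.28), and the collagen genes Col1a2 and Col3a1 differed by -0.82 ± 0.39 and -0.85 ± 0.45. Col3a1 was -0.40 without day 3 replicate 2, and its second probe set gave -0.30. Sparc, a matrix glycoprotein, differed by 0.77 ± 0.29 on its brightest probe set but by -1.31 to -0.55 on its other 3, so its direction depends on the probe set. Of 4 Kupffer cell and macrophage markers tested 3 were lower (median -0.26), and 0 of 11 lymphocyte markers passed the filter. The 4 endothelial markers tested were mixed, with 3 higher and 1 lower (median 0.25). Icam1 (0.46), Kdr (0.44) and Fcgr2b (0.06) were higher and Lyve1 (-0.63) was lower, all but Fcgr2b with no overlap. The part of cell composition in the cytoskeleton and cell division values was not tested.

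**Figure D4:**
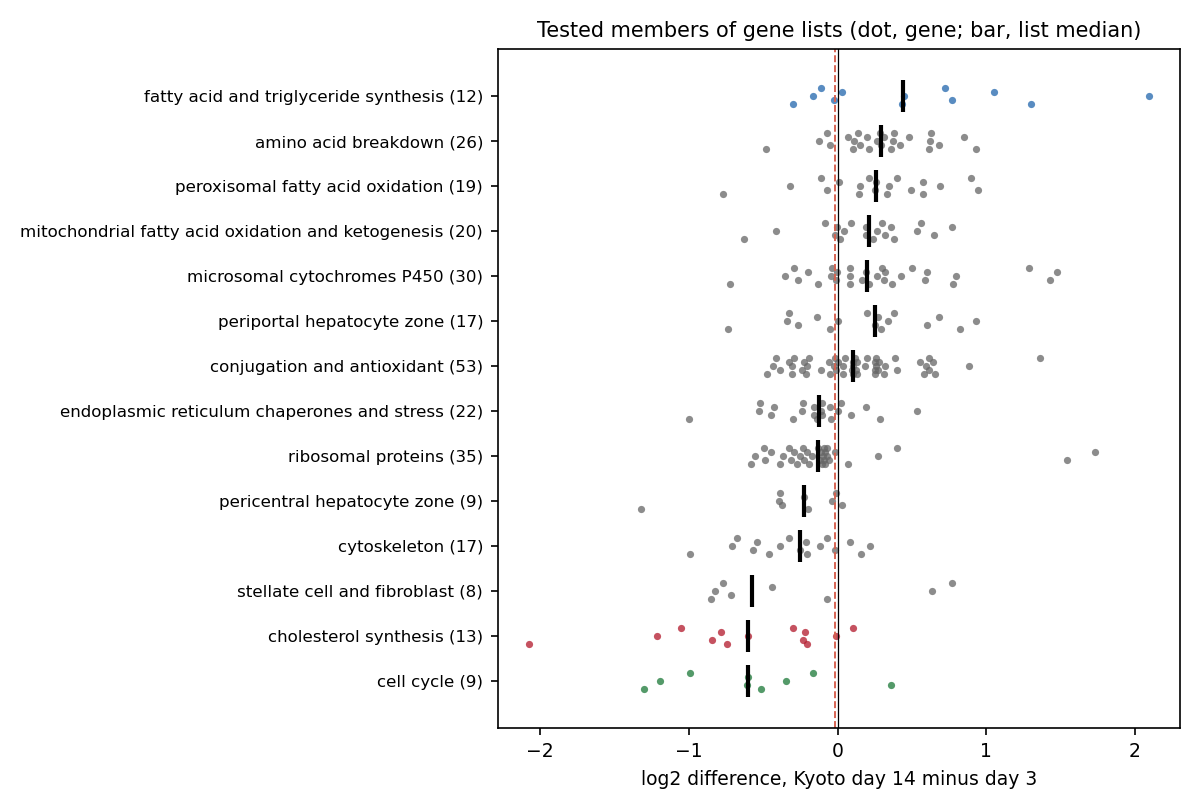
Log2 difference, day 14 minus day 3 (x axis), of the tested members of 14 gene lists (rows, number of members in parentheses); each dot is 1 gene, black bars are list medians and the dashed line is the median of all 1909 features, -0.02. The medians run from -0.60 for cell cycle and cholesterol synthesis to 0.44 for fatty acid and triglyceride synthesis, and most members of the other lists lie within 1 log2 of 0.

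The other large differences were of signalling genes and regulators. Jun, a subunit of the transcription factor AP-1, was at the floor on day 3 replicate 2 and read 7.95 on replicate 1, against 8.82 and 9.47 at day 14, a difference of at least 1.74 (limma adjusted p = 0.713). Cited2, a transcriptional coregulator, read 8.84 and 7.34 against 8.96 and 9.79, a difference of 1.28 ± 0.98 that was 0.53 without day 3 replicate 2. Its other probe sets, with 1 and 2 of the 4 arrays at the floor, gave 0.50 and 0.0043, and the mean of the 3 gave 0.60. Gna12, a G protein subunit, read 7.20 and 7.71 against 8.62 and 8.60 (1.16 ± 0.34), with a second probe set at 0.80. Prkaca, the catalytic subunit of protein kinase A, read 8.81 and 9.11 against 7.84 and 7.82 (-1.13 ± 0.41), with a second probe set at -1.16. Mboat7, which remodels phosphatidylinositol, read 8.36 and 8.55 against 7.43 and 7.28 (-1.10 ± 0.27, limma adjusted p = 0.488). Each of these 5 genes had no overlap, which the rule for naming the largest differences required.

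The same interval was measured in Wistar rats, on 5 arrays that share none with the Kyoto comparison. Of these, day 3 replicate 2 and day 14 replicate 3 have no lot batch given, unlike the 4 Kyoto arrays. Their 3′ Gapdh control signal exceeded the 5′ one by 0.197 (day 3 replicate 2) to 1.29 log2 (day 14 replicate 2) over the 5 arrays. In the Wistar comparison limma called 0 of 1909 features (0%) and 85 (4.45%) had an unadjusted p under 0.05. The difference between the strains, Kyoto minus Wistar in day 14 minus day 3, also had 0 features past the threshold (0%), and 99 (5.19%) had an unadjusted p under 0.05. Its lowest adjusted p was 0.377. The 5 genes with the smallest p of that difference had differences of opposite sign in the 2 strains. Choosing genes by that p favours those whose Kyoto and Wistar differences point apart, so the opposite signs are in part fixed by the choice. Onecut1, a liver transcription factor, read 8.07 and 8.60 at day 3 and 9.53 and 9.20 at day 14 in Kyoto (1.03 ± 0.50), and went from a mean of 9.19 to 7.59 in Wistar (-1.60 ± 0.46). The strain difference was 2.63 ± 0.68 (limma adjusted p = 0.834). For Rpl5 it was at least 2.30, for Jun at least 2.38, for Slc4a4, a bicarbonate transporter, 1.70 ± 0.45, and for Prkag1, a subunit of the AMP-activated kinase, -1.40 ± 0.37. Slc4a4 itself differed by 0.92 ± 0.33 in Kyoto and Prkag1 by -0.57 ± 0.27, and without day 14 replicate 1 by 0.48 and -0.33.

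The lipid genes differed in how the strains compared. Scd had nearly the same difference in both, 2.09 ± 0.58 in Kyoto and 2.19 ± 0.53 in Wistar, with a strain difference of -0.10 ± 0.79, an error too wide to call them alike. Gpam differed by 1.30 ± 0.51 in Kyoto and by -1.02 ± 0.47 in Wistar (strain difference 2.32 ± 0.69, limma adjusted p = 0.850). Sqle had a mean of 9.21 on both days in Wistar, and its strain difference was -2.08 ± 0.61 (limma adjusted p = 0.850). Over the 13 cholesterol synthesis genes the Wistar median was 0.14, with 7 higher and 6 lower, and 3 members had a lower difference in Kyoto at an unadjusted p under 0.05, beside 2.72% of all features. They were Sqle, Msmo1 (-1.39 ± 0.50) and Nsdhl (-0.82 ± 0.36). None of these strain differences passed after adjustment.

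**Figure D5:**
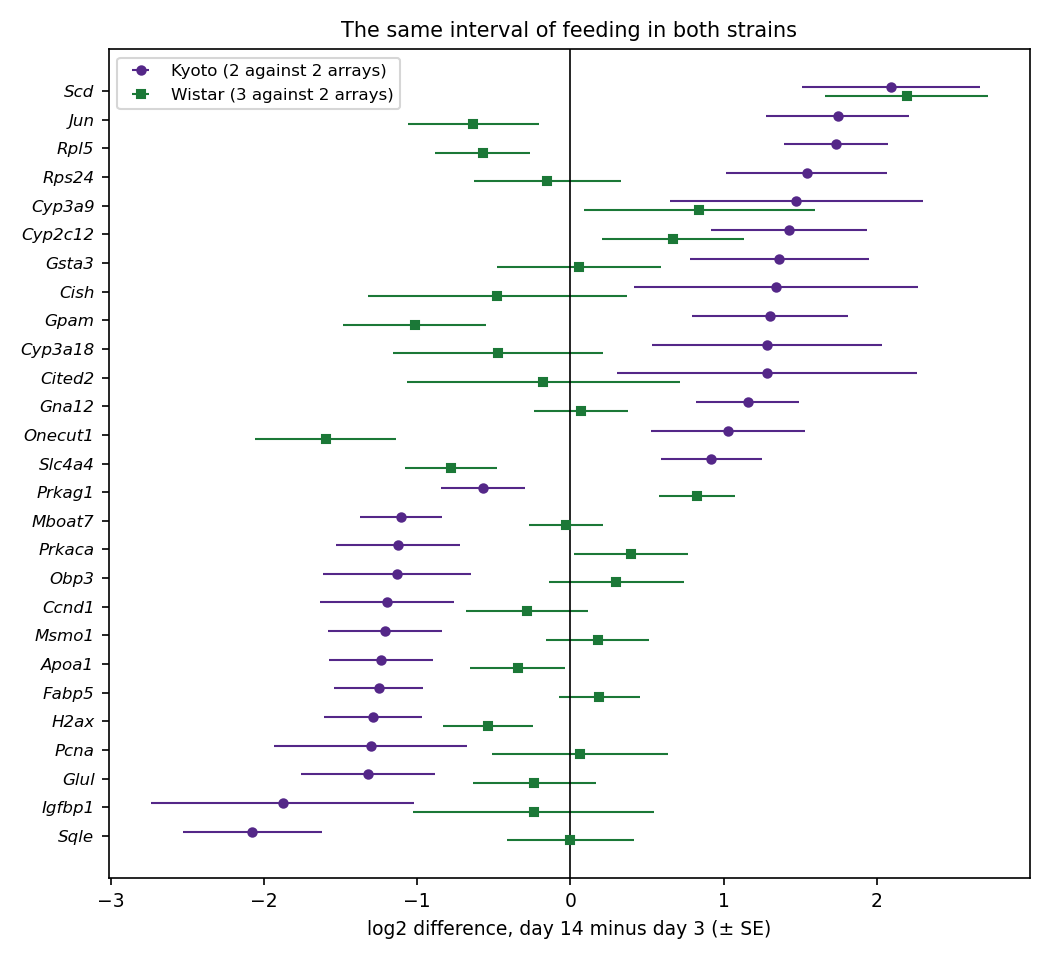
Log2 difference, day 14 minus day 3, ± standard error (x axis) in Kyoto (circles, 2 against 2 arrays) and Wistar (squares, 3 against 2 arrays) for the genes with the largest Kyoto differences and those with the smallest p of the strain difference. Scd lies near 2.09 and 2.19 in the 2 strains, whereas Onecut1, Gpam, Jun and Rpl5 lie on opposite sides of 0. Choosing genes by the p of the strain difference favours such opposite signs.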

How the data were processed

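The 4 Kyoto arrays of days 3 and 14 were taken from the series' table of 14 arrays by their source labels. The authors deposited a linear intensity for each probe set, and the submitters' processing notes name MAS5, with its version and scaling target not given in the sources. Rows with a value on every array (4127 of 4502) were log2 transformed and quantile normalized in limma 3.58.1 (R 4.3.3). Signals under the 25th percentile, 115, were set to it. The probe set with the highest mean stood for its gene, and the upper 60% of features were kept. Of the probe sets, 3700 had 1 symbol, 229 several and 573 none. Of 84 genes named by the rule below that had several probe sets, 57 had all of them on the same side of 0. The other probe sets are given beside some genes only. Opposite ones not given there include Btg1 at 0.08, Acly at 0.15, Lss at 0.09 and Mvk at 0.03. Me1 had others at -0.07 and -0.09, each with 3 of the 4 Kyoto arrays at the floor.

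A linear model of 6 group means was fitted to the 14 arrays (lmFit, eBayes with an intensity trend), Benjamini-Hochberg adjusted over 1909 features at a threshold of 0.05. It was tested on simulated data. The array labelled Wistar control replicate 2, nearest to Kyoto day 3 replicate 2, entered none of the group means compared. It did enter the normalization, the floor, the choice of probe sets, the filter, the centring of lists and the shared spread. The alternative without it left it out of the fit only. The comparisons of days 14, 3 and 1 in Kyoto share arrays, so day 1 levels are set beside them without a test. The number of arrays limits the precision. Promoters are RefSeq's.

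Genes were named by a rule: the 12 largest differences in each direction with no overlap, every tested member of the cholesterol synthesis, fatty acid and triglyceride synthesis and cell cycle lists, up to 4 members with the smallest p of every other list, and the 5 smallest p of the strain difference. The members and lists were chosen with earlier results of these data known. The alternatives were other scalings, floors, filters, probe set rules, variance settings, fits on fewer arrays and leaving out each array.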

Additional observations from a re-analysis of the deposited data

How the results depend on the processing

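No feature passed under 19 of the 21 alternatives run. With no filter on low signals 1 passed by limma (Slc4a7, -0.40 ± 0.04, 1 of its 4 arrays at the floor, adjusted p = 0.0259), and with array weights 1 passed (Rpl5, at least 1.73, adjusted p = 0.0285). With only the 4 arrays compared, 198 features had an unadjusted p under 0.05, with array weights 205 and with no filter 133, against 88 as reported, and with single arrays of days 3 and 14 left out 50 to 110. The strain difference had 0 features past the threshold in each alternative run on it. The median of the cholesterol synthesis list was -0.41 with the mean of a gene's probe sets. With single arrays left out it ran from -0.63 to -0.36, that of the cell cycle list from -0.71 to -0.44, and that of the fatty acid and triglyceride list from 0.11 to 0.66. The lower members numbered 11 to 13 for cholesterol synthesis; these counts, and the fit without Kyoto day 1 replicate 1, were added after seeing the data. The cause of these shifts was not tested.

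Of 95 named genes run through the alternatives, 82 kept their sign under all those run on them. A further 2 were at 0 with 1 array left out, Ccnd2 without day 3 replicate 2 and Serpina1 without day 3 replicate 1. A gene with no overlap cannot change sign when 1 array is left out, and many genes were named for having none. Fits that left out only arrays of other groups keep every difference as it is. The count of 82 is therefore in part fixed in advance and is no measure of reliability. Elovl5 was -0.083 with median scaling, -0.071 with 75th percentile scaling and -0.091 on the authors' scale, and Mvd was 0.0084 with 75th percentile scaling. Sparc was -0.42 with the mean of its probe sets. The other genes changed sign only with single arrays left out. Without day 3 replicate 1, Dgat1 was 0.08, Elovl5 -0.16 and Lss 0.16. Without day 3 replicate 2, Acly was 0.074, Gadd45a -0.062, Mvk 0.13 and Slc25a1 0.016. Without day 14 replicate 1, Acat2 was 0.13, and without day 14 replicate 2, Dgat1 was 0.20, Dhcr7 -0.050 and Elovl5 -0.19. Over the 4 arrays left out in turn, the opposite ends of the range were -0.60 for Acat2, -0.30 for Acly, -0.24 for Dgat1, 0.25 for Dhcr7 and for Elovl5, 0.78 for Gadd45a, -0.56 for Lss and for Mvk, and -0.34 for Slc25a1. The cause was not tested. No paired analysis was possible because the labels carry no replicate numbers.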

Other observations

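Genes of pyrimidine and purine metabolism, the route that orotic acid enters, lay close to 0. Of 13 tested, 9 were higher and 4 lower at day 14, with a median difference of 0.07 log2, and 0 had an unadjusted p under 0.05 by limma. Gda, the guanine deaminase, had the smallest p of the list, at 10.87 and 10.95 on the day 3 arrays and 10.62 and 10.17 on the day 14 arrays, a difference of -0.52 ± 0.28 that was -0.30 without day 14 replicate 2. Uox, the urate oxidase, differed by 0.35 ± 0.28 and Upb1, the last enzyme of uracil breakdown, by 0.31 ± 0.28. Without day 14 replicate 2 Uox was 0.20, and without day 3 replicate 2 Upb1 was 0.07. Oxidative phosphorylation genes, 36 tested, had a median of 0.04, with 21 higher and 15 lower. Of 46 secreted plasma protein genes 25 were higher (median 0.03). Mug1, a proteinase inhibitor, was low on day 3 replicate 1 only, at 10.94 against 12.83, 12.91 and 12.93 on the other 3 arrays, and its difference of 1.04 ± 0.44 was 0.09 without that array.

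Chaperones and stress genes of the endoplasmic reticulum were lower in 16 of 22 members, 7 with no overlap, with a median of -0.12. Over all features 52.5% were lower and 22.9% lower with no overlap. Hyou1, a chaperone of the lumen, read 9.87 and 10.48 at day 3 and 8.60 and 9.76 at day 14, a difference of -0.996 ± 0.599, with a second probe set at -0.55. Without day 14 replicate 1 it was -0.41. Calr, the calreticulin, differed by -0.52 ± 0.27, with 2 further probe sets at -0.87 and -0.97. Its membrane-bound relative Canx differed by 0.53 ± 0.57, and its other 4 probe sets gave -0.10 to 0.37. Among liver transcription factors, Foxa2 was at the floor on day 3 replicate 2 and read 8.18 on replicate 1, against 8.52 and 8.50 at day 14, a difference of at least 1.00, and 0.34 without day 3 replicate 2. Nr0b2, the small heterodimer partner that represses bile acid synthesis, read 8.85 and 9.41 against 8.14 and 8.34, a difference of -0.89 ± 0.65, with a second probe set at -1.04. The remaining one had both day 14 arrays at the floor and was at least 0.61 lower. None of the 6 circadian clock genes in the table passed the filter on low signals.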
